A study of Mus musculus with 40 samples.

Results

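Complement and coagulation proteins were followed here as 36 genes out of the 32544 in the liver count table, taken by symbol from a fixed list of plasma proteins that the liver secretes. Of these, 15 belong to complement and 21 to coagulation and fibrinolysis, and all 36 passed the filter on low counts. Serping1, the C1 inhibitor that acts on proteases of both systems, was counted with complement. Liver RNA was sequenced from 20 male germ-free C57BL/6 mice, which carry no microbes, at postnatal day 64 and after 6 weeks of treatment. Groups of 5 mice received a control diet with vehicle, the control diet with delta-valerobetaine (VB, a trimethylated amino acid derivative made by gut microbes), a Western diet with vehicle, or the Western diet with VB. The library names give the vehicle of the control-diet mice as PBS. Every mouse was germ-free, so no group with microbes enters any comparison.

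Complement is a cascade of proteases that opsonises targets through C3 and C4 and ends in a pore, the membrane attack complex, built on C5 (gene Hc) from C6, C7, C8 and C9. Coagulation is a parallel protease cascade that ends in thrombin (F2) cutting fibrinogen (Fga, Fgb and Fgg), held in check by serpins such as antithrombin (Serpinc1) and undone by plasmin (Plg). Hepatocytes are the main source of most of these proteins, and several of them rise in the acute phase of inflammation.

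Total counts ran from 16315342 to 24566686 per mouse, and the members took 2.29% to 4.27% of them. The member least covered in any mouse, F11 in a Western-diet vehicle mouse, still had 390 reads. Of 10 hepatocyte markers, 9 were in the table and none was at 0 throughout a group, with summed levels of 40600 to 63300 CPM (read counts scaled to a common library size), so the libraries carry the labelled tissue. Summed Kupffer cell markers ran from 144 to 453 CPM and summed endothelial markers from 89.4 to 260 CPM. The library names are written differently for the control-diet and the Western-diet mice, so diet and any difference in handling that goes with those names cannot be told apart. One Western-diet vehicle mouse, mouse 4, stood apart, with 4.62% mitochondrial counts against 2.34% to 2.68% in the rest of its group and the lowest member share, 2.29%. Calls that change without it are given with and without it, as are some of the other values that it moves. In bulk liver RNA, fewer cells of a type and less RNA per cell cannot be told apart.

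The results turn most on 5 genes, those called with VB on the Western diet. C6, C8b and C9 encode parts of the membrane attack complex, F11 encodes coagulation factor XI, and Klkb1 encodes plasma prekallikrein, the paralog of factor XI in the contact system. In GRCm38 coordinates with GENCODE M21 annotation, C8b lies on the plus strand at chr4:104766317-104804548 and C8a, encoding the alpha chain of the same C8 protein, on the minus strand at chr4:104815679-104876398, with 11.1 kb between their 3′ ends. F11 (chr8:45241174-45262031) and Klkb1 (chr8:45266689-45294859) are both on the minus strand, 4.7 kb apart with no coding gene between them. C6 (chr15:4727175-4814967) and C9 (chr15:6445327-6498751) are both on the plus strand of chromosome 15.

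The 250 bases before the start site of these genes are shown, with those of C8a, the neighbour of C8b that had no call. They come from the RefSeq promoter table (GRCm38.p6), which held 27 of the 36 members, and are written 5′ to 3′ on the gene's own strand. Capitals mark a match to the C/EBP motif, and in C9 a match to the D-box as well. The windows are chr4:104766067-104766316 (plus strand) for C8b, chr4:104876399-104876648 (minus) for C8a, chr15:4726960-4727209 (plus) for C6, chr15:6445096-6445345 (plus) for C9, chr8:45262032-45262281 (minus) for F11 and chr8:45294836-45295085 (minus) for Klkb1.
C8b: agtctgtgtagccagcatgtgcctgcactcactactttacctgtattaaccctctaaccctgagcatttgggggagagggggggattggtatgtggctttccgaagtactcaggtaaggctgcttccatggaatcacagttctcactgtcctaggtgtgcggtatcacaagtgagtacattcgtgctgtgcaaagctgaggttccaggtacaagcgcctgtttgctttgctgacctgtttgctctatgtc
C8a: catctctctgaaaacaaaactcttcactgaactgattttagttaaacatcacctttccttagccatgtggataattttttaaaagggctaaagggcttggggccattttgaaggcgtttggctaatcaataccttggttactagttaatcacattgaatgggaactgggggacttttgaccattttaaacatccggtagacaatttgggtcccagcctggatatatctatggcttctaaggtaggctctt
C6: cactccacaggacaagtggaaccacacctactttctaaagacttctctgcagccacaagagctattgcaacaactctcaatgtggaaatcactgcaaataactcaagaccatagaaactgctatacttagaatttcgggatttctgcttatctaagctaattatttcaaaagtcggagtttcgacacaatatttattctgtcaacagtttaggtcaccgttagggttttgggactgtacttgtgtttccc
C9: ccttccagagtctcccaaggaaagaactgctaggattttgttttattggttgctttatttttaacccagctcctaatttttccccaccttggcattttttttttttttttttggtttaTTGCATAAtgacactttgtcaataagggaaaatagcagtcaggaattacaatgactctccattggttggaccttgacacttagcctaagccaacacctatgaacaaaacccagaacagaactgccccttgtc
F11: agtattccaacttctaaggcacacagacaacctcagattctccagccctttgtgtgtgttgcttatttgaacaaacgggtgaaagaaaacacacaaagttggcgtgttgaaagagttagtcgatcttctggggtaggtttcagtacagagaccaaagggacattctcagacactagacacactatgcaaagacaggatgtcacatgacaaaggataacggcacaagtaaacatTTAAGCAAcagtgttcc
Klkb1: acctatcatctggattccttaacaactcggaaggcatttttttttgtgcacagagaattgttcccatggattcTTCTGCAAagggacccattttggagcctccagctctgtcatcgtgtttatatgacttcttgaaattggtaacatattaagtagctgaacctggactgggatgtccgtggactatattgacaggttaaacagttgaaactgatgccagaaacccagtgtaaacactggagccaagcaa

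Both strands of each promoter, from 250 bases before the start site to 50 after it, were searched for motifs of factors that act in liver. The C/EBP motif TTGCNNAA was in 9 of the 27 member genes (C3, C9, Cpb2, F11, F9, Fga, Fgb, Klkb1 and Serpinc1) and in 10.8% of all 32851 promoters. The IL-6 response element CTGGGAA was in 5 (C6, F9, Fgb, Fgg and Masp2) and in 11.1% of all promoters. In C6 that match lies after the start site, outside the printed bases. The D-box TTATGNAA, bound by the clock-output factors Dbp, Tef, Hlf and Nfil3, was in C4bp and C9 and in 3.38% of all promoters; in C9 it overlaps the C/EBP match, beginning 132 bases before the start site. The HNF1 motif was in Hc only (0.14% of all promoters), and the HNF4 motif CAAAGTCCA (0.475%) and the E-box CACGTG (7.15%) were in none. No match was found in the printed bases of C8b, C8a or C6. These matches describe letters in a window and were not tested against the changes below. C2, C4b, Cfb, Cfi, Masp1, Serping1, Plg, Kng1 and Proc had no entry matched.

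Per kilobase of exon, the 3 fibrinogen genes stood highest among the members in control-diet vehicle mice, with Fgg at 1660 ± 124 CPM per kb (SD, n = 5), Fga at 1338 and Fgb at 1254. Kininogen (Kng1) followed at 798, then C3 at 683, prothrombin (F2) at 531 and plasminogen (Plg) at 522. The terminal complement genes were spread out, with C8g at 478, C9 at 139, C8b at 105, C8a at 86.9, C6 at 59.9 and Hc at 49.9. The lowest were the cofactor gene F5 at 24.8, C2 at 17.7, protein S (Pros1) at 11.2 and the lectin-pathway protease Masp1 at 6.55. Lengths are the union of all annotated exons, so a gene with long rare isoforms reads low on this scale. Kng1 and C4b have near-identical copies (Kng2 and C4a), and the counting rule for shared reads is not given, so their levels are uncertain. The same holds for Cfb and C2, which lie 85 bases apart and overlap an annotated read-through gene, since the strand setting is not given either. Other coding genes are also annotated over part of C8a, C8g, Klkb1, Masp1, Masp2, Plg, Serpinc1 and Serpind1. The same limit applies to their levels.

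The first comparison asks how the Western diet changed these genes in vehicle mice. Coagulation genes moved mostly down: 7 of the 21 fell (F11, Serpind1, Klkb1, Serpinc1, Serpinf2, F10 and Fga) and 2 rose (Cpb2 and F9). Among the 15 complement genes C8b fell and no other passed the test. Together 10 of 36 members passed, or 27.8%, against 16.5% of all 12616 genes tested, by edgeR's quasi-likelihood test with Benjamini-Hochberg adjusted p under 0.05. Lower calls were 8 of 36 members against 7.59% of all genes, and higher calls 2 of 36 against 8.92%. The median log2 change was -0.17 over the coagulation genes and -0.03 over the complement genes, beside 0.02 over all genes tested. Without mouse 4 of the Western-diet vehicle group 11 members passed, 4 higher and 7 lower, and the complement median was 0.00. Over all genes 2411 passed in that fit, against 2083 with all mice.

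C8b, the C8 beta chain gene, had the largest of these changes. In control-diet vehicle mice 1 to 5 its levels were 324, 202, 279, 247 and 277 CPM, and in Western-diet vehicle mice 147, 109, 147, 100.4 and 152 CPM. The groups did not overlap: the highest Western-diet mouse was below the lowest control-diet mouse. C8b was 2.03-fold lower on the Western diet (log2 change -1.02, SE 0.17, adjusted p = 0.00022 by edgeR). Its neighbour C8a, with 231 to 369 CPM on the control diet and 208 to 390 CPM on the Western diet, had a log2 change of 0.03, and the third chain gene, C8g, one of -0.03.

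F11 showed the second largest fall. Its levels were 71.4, 51.4, 67.4, 75.2 and 77.5 CPM in control-diet vehicle mice and 47.0, 35.0, 41.3, 27.9 and 40.5 CPM in Western-diet vehicle mice. Again every Western-diet mouse lay below every control-diet mouse, and the change was 1.79-fold (log2 -0.84, SE 0.14, adjusted p = 0.00027 by edgeR). Klkb1, next to it in the genome, was at 245, 236, 240.4, 265 and 272 CPM on the control diet and 237, 198, 182, 196 and 186 CPM on the Western diet. Only mouse 1 of the Western-diet group reached the control-diet range, and Klkb1 fell by 0.33 on the log2 scale (SE 0.08, adjusted p = 0.0039 by edgeR). The other contact-system genes did not pass: Kng1 had a log2 change of -0.15, and F12, encoding factor XII that starts the contact pathway, one of -0.00.

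The 3 serpins counted with coagulation and fibrinolysis all fell, while Serping1, counted with complement, did not pass (log2 change 0.09). Antithrombin (Serpinc1), the main inhibitor of thrombin and factor Xa, was at 2553, 2739, 2583, 2769 and 2654 CPM in control-diet vehicle mice and 2099, 2263, 2048, 2339 and 1957 CPM in Western-diet vehicle mice. Heparin cofactor II (Serpind1), a second thrombin inhibitor, was at 430.1, 414, 420, 457 and 428 CPM against 381, 350, 349, 267 and 320.4 CPM. Alpha-2-antiplasmin (Serpinf2), which blocks plasmin, was at 764, 738, 818, 893 and 842 CPM against 711, 629, 643, 462 and 559 CPM. None of the 3 overlapped between groups. Their log2 changes by edgeR were -0.31 for Serpinc1 (SE 0.08, adjusted p = 0.0060), -0.37 for Serpind1 (SE 0.08, adjusted p = 0.0028) and -0.43 for Serpinf2 (SE 0.11, adjusted p = 0.0089).

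Of the vitamin K dependent clotting factors, F10 fell and F9 rose. F10, encoding factor X, had a log2 change of -0.27 (SE 0.07, edgeR adjusted p = 0.0128), with 464 to 504 CPM on the control diet and 370 to 433 CPM on the Western diet. F9, encoding factor IX that activates factor X, went the other way, by 0.32 (SE 0.09, adjusted p = 0.0200 by edgeR), with overlapping ranges of 85.9 to 126 CPM and 115 to 141 CPM. Prothrombin (F2) was at 2280, 2369, 2483, 2534 and 2533 CPM on the control diet and 2296, 2224, 2185, 1961 and 2161 CPM on the Western diet, a log2 change of -0.17 that did not pass. F7 (-0.16), the anticoagulant Proc (-0.10) and Proz (-0.06) did not pass either. Pros1, encoding the cofactor of activated protein C, had a change of 0.35 with adjusted p = 0.109 by edgeR. Without Western-diet vehicle mouse 4, at 32.5 CPM against 60.1 to 74.5 CPM in the rest of its group, its change was 0.49 with adjusted p = 0.00096.

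The fibrinogen genes, which share a cluster on chromosome 3, stood lower on the Western diet, and 1 of the 3 passed. Fga was at 3608, 3908, 3849, 4019 and 4750 CPM on the control diet and 3784, 3308, 3258, 2360 and 2996 CPM on the Western diet, and fell by 0.36 (SE 0.12, adjusted p = 0.0411 by edgeR). Fgb was at 4591, 4548, 4672, 4730 and 5355 CPM against 4595, 3901, 3927, 4028 and 3991 CPM, a change of -0.23 with adjusted p = 0.133 by edgeR. Fgg had a change of -0.25 with adjusted p = 0.0897 by edgeR. In each of the 3, the Western-diet group overlapped the control range through mouse 1. Fga did not pass in 8 of 20 fits that each left out 1 mouse, and without mouse 4, the lowest, its change was -0.28 with adjusted p = 0.0716. In a fit of the 2 vehicle groups alone Fga (edgeR adjusted p = 0.0823) and F9 (0.083) did not pass. The share of each chain in the summed fibrinogen level per kb moved little, Fga taking 31.4% ± 0.87 (SD, n = 5) on the control diet and 29.6% ± 2.57 on the Western diet.

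Cpb2 rose; it encodes a carboxypeptidase that slows fibrin breakdown. Its levels of 338 to 383 CPM on the Western diet lay above all control-diet values of 283 to 314 CPM (log2 change 0.27, SE 0.07, adjusted p = 0.0148 by edgeR). Plasminogen (Plg) was at 1763, 1774, 1846, 2108 and 2202 CPM on the control diet and 1879, 1862, 1752, 1316 and 1698 CPM on the Western diet, with a log2 change of -0.19 that did not pass. F5, encoding the cofactor of factor Xa, had a change of 0.21. F13b, encoding the B subunit of factor XIII, had one of -0.07. Neither passed.

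Complement outside C8b did not pass in vehicle mice. C3, on which all complement pathways converge, was at 3030, 3233, 3404, 3737 and 4158 CPM on the control diet and 3448, 3092, 2839, 1671 and 3036 CPM on the Western diet (log2 -0.32, edgeR adjusted p = 0.207). Mouse 4 was again the lowest, and without it the C3 change was -0.19. Hc was at 313, 268, 324, 309 and 349 CPM against 341, 314, 365, 220.2 and 322 CPM, a change of -0.00. C9 was at 395, 281, 378, 331 and 386 CPM against 390, 368, 431, 325 and 371 CPM, a change of 0.09. C6 had a change of -0.39 and adjusted p = 0.207 by edgeR. The activation proteases C2 (-0.23), Masp1 (-0.32), Masp2 (-0.02) and Cfb (-0.04) and the regulators C4bp (0.16), Cfi (-0.03) and Serping1 (0.09) did not pass. C4b had a change of 0.28, and of 0.45 with adjusted p = 0.0204 by edgeR without mouse 4, in which it was at 517 CPM against 1188 to 1318 CPM in the rest of the group. Counting groups that do not overlap, 8 members were lower on the Western diet (C2, C8b, Masp1, F10, F11, Serpinc1, Serpind1 and Serpinf2), beside 5.77% of all genes, and Cpb2 alone was higher, beside 6.45%.

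**Figure D1:**
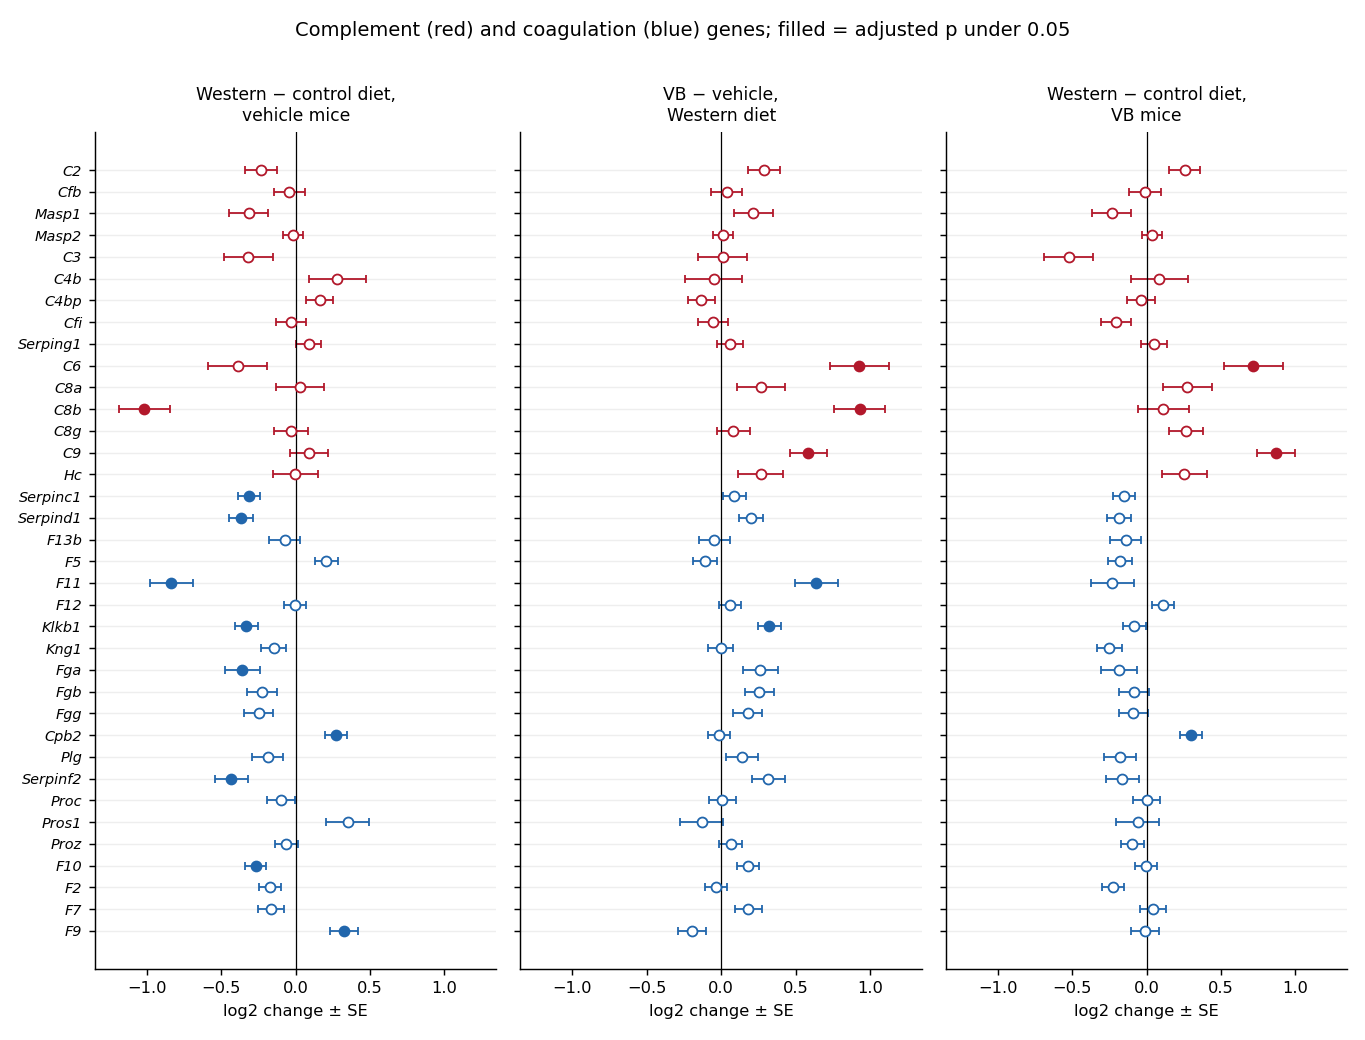
Log2 change of each of the 36 members (points, with SE) in 3 comparisons of 5 mice a group, with complement genes in red and coagulation genes in blue, and filled points for an edgeR adjusted p under 0.05. The first panel has 8 filled points to the left of 0 and 2 to the right, the second 5 to the right, and the third 3 to the right.

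Other genes of the same systems were counted from lists that hold no members. Of 27 other complement genes tested, 3 rose and 1 fell (14.8%) in vehicle mice on the Western diet: Cfd, encoding factor D, by 7.46 on the log2 scale, Clu by 0.42, the complement inhibitor Cd59a by 0.38 and C1ra by -0.29. Cfd is also an adipocyte marker, and it was the only 1 of 6 such markers to pass the filter; their summed level was 0.413 to 1.90 CPM with the control diet and 30.4 to 266 CPM with the Western diet. Of 27 other coagulation genes tested, 4 rose and 2 fell (22.2%), among them Hrg by 0.55, Tfpi2 by -0.47, Anxa2 by 1.09 and tissue factor (F3) by 0.95. Of 23 acute-phase genes outside the members, 14 rose and 1 fell, with a median of 0.75. Among them Orm3 changed by 3.13, Saa3 by 1.14, Saa4 by 1.03 and Serpina3n by 0.76. Fibrinogen and C3 are textbook acute-phase proteins too, and neither rose in this comparison. Of 23 liver transcription regulators, some of them also on the clock list, 7 rose and 1 fell, with Nfil3 at -1.76, Tef at 1.73, Ppara at 1.09 and Dbp at 4.80.

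Clock genes, which keep daily time in liver, differed between the groups as well. Of 21 clock and clock-output genes, 11 rose and 6 fell on the Western diet in vehicle mice. A score made from those genes (their leading principal component over the mice, signed so that Dbp is high at high scores) ran from -1.79 to -0.837 in control-diet vehicle mice, -0.557 to 0.045 in control-diet VB mice, 1.198 to 1.484 in Western-diet vehicle mice and -0.246 to 0.721 in Western-diet VB mice. The vehicle groups do not overlap on this score. With the score as a covariate 0 members passed in this comparison and 28 of all genes did, while the members' median change went from -0.12 to -0.41. The time of day at collection is not given here. The part of the clock genes in the members' changes cannot be told apart from that of diet.

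The second comparison asks what VB changed in mice on the Western diet. In these mice 5 members rose and none fell: C8b, C6 and C9 in complement, and F11 and Klkb1 in coagulation. That is 13.9% of the 36, against 7.19% of all genes tested (3.33% higher and 3.86% lower), by edgeR. The median log2 change was 0.08 over complement genes and 0.09 over coagulation genes, beside -0.02 over all genes. Leaving out 1 mouse at a time, the complement median ran from 0.05 (without Western-diet vehicle mouse 5) to 0.13 (without Western-diet VB mouse 5). This comparison and the preceding one share the Western-diet vehicle mice, so their calls are not independent.

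C8b was at 264, 259, 185, 173 and 372 CPM in Western-diet VB mice 1 to 5, against 147, 109, 147, 100.4 and 152 CPM with vehicle. The lowest VB mouse was above the highest vehicle mouse, and the change was 1.91-fold (log2 0.93, SE 0.17, edgeR adjusted p = 0.0019). The mean with VB, 250.4 ± 79.7 CPM (SD, n = 5), lay near that of control-diet vehicle mice, 266 ± 44.8 CPM.

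C6 was at 278, 331, 218, 209 and 514 CPM with VB, against 144, 153, 191, 157 and 169 CPM with vehicle. Mouse 5 was the highest, and without overlap between groups the change was 1.90-fold (log2 0.93, SE 0.20, edgeR adjusted p = 0.0061). C9, the subunit that polymerises into the pore wall, was at 671, 577, 450.1, 439 and 694 CPM with VB, against 390, 368, 431, 325 and 371 CPM. All VB mice were above all vehicle mice, and C9 rose (log2 0.59, SE 0.13, edgeR adjusted p = 0.0059).

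F11 was at 60.8, 59.3, 55.9, 48.9 and 74.0 CPM with VB, against 47.0, 35.0, 41.3, 27.9 and 40.5 CPM, a 1.56-fold difference without overlap (log2 0.64, SE 0.14, edgeR adjusted p = 0.0081). Klkb1 was at 265, 243, 248, 239 and 256 CPM with VB, against 237, 198, 182, 196 and 186 CPM, a 1.25-fold difference without overlap (log2 0.32, SE 0.08, edgeR adjusted p = 0.0111). These 5 were the members whose groups did not overlap upward, beside 2.59% of all genes, and none was non-overlapping downward, beside 2.97%.

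The remaining terminal complement genes had positive changes that did not pass: Hc and C8a 0.27 each and C8g 0.08. Hc was at 514, 341, 312, 252 and 459 CPM with VB, overlapping the vehicle values of 220.2 to 365 CPM. Western-diet vehicle mouse 4 was the lowest of its group for Hc (220.2 CPM against 314 to 365 CPM) and C8a (208 CPM against 330 to 390 CPM). The changes of Hc and C8a without that mouse are not given here. C3 was at 4075, 2368, 2870, 2295 and 2573 CPM with VB and had a change of 0.01, or -0.13 without Western-diet vehicle mouse 4. The 4 activation proteases ranged from 0.01 to 0.29 and the 3 regulators from -0.13 to 0.06. In coagulation, Serpinf2 came nearest to passing (0.32, edgeR adjusted p = 0.0896). Serpinc1, at 2423, 2047, 2225, 2485 and 2200 CPM with VB, had a change of 0.09, and Serpind1 one of 0.20. Fgb, at 6219, 4250, 4193, 4400 and 5356 CPM with VB, had a change of 0.26, with mice 1 and 5 above the other VB mice. Plg, at 2257, 1700, 1702, 1699 and 2012 CPM, had a change of 0.14 and F2, at 2356, 1949, 2039, 2116 and 2104 CPM, one of -0.04. The 2 genes that were higher on the Western diet in vehicle mice were near or below 0 here, Cpb2 at -0.01 and F9 at -0.20.

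**Figure D2:**
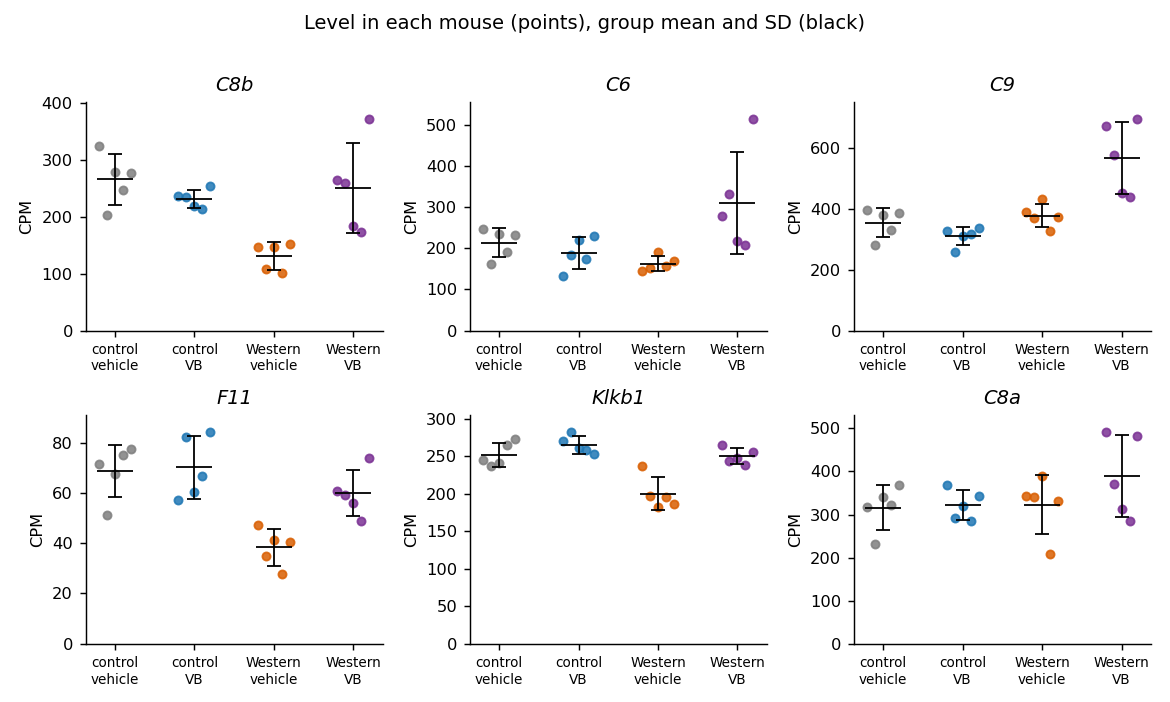
CPM of C8b, C6, C9, F11, Klkb1 and C8a in each mouse (points, 5 a group), with the group mean and SD in black. Western-diet VB mice lie above all Western-diet vehicle mice for the first 5 genes, while the C8a groups overlap.

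Spread among Western-diet VB mice was wide. The median coefficient of variation over the 36 members was 13.6% in that group, against 7.29% in control-diet vehicle, 5.65% in control-diet VB and 10.6% in Western-diet vehicle mice. C6 was the most variable member there, at 40.1%, and Klkb1 the least, at 4.19%. Counts of the major urinary protein (Mup) genes took 15.8% to 25.2% of the reads in Western-diet VB mice, against 9.53% to 12.7% with vehicle on that diet, and C8b, C6, C9 and F11 were each highest in the same 3 mice, 1, 2 and 5, that had the highest Mup shares (19.6%, 25.2% and 24.6%). For Klkb1, also called, mouse 3 (248 CPM) was above mouse 2 (243 CPM). The part of the Mup shares in the results was not tested. With the clock score as a covariate 0 members passed and 2 of all genes did. C8b then had a change of 0.61, C9 of 0.42, C6 of 0.37, F11 of 0.55 and Klkb1 of 0.38. On the Western diet the VB and vehicle groups do not overlap on that score. The part of the clock genes thus cannot be told apart from that of VB. Without any 1 of the 20 mice all 5 still passed. In a fit of the Western-diet mice alone Klkb1 did not pass (log2 0.33, edgeR adjusted p = 0.0805).

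**Figure D3:**
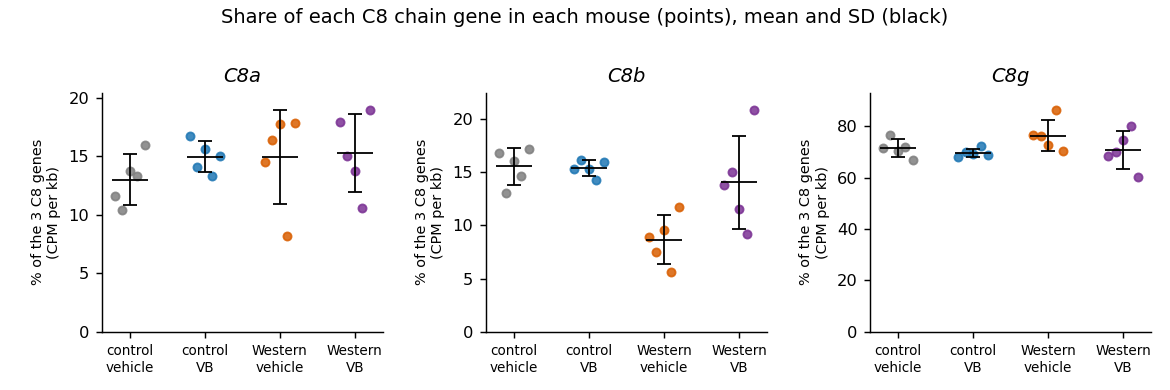
Share of C8a, C8b and C8g in their summed level per kb of exon, in percent, in each mouse (points, 5 a group) with the mean and SD in black. The C8b share is 5.63% to 11.7% in Western-diet vehicle mice and at least 13.05% in every control-diet mouse.

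The C8 protein is assembled from an alpha, a beta and a gamma chain, so the balance of the 3 genes was followed in each mouse. Per kb of exon, C8b made up 15.6% ± 1.71 (SD, n = 5) of their sum with vehicle and 15.4% ± 0.72 with VB on the control diet. In Western-diet vehicle mice it made up 8.66% ± 2.29, with no mouse in the control-diet range. In Western-diet VB mice it was 14.1% ± 4.38, from 9.17% in mouse 4 to 20.8% in mouse 5. C8a held 13.01% to 15.24% on average in the 4 groups and C8g 69.7% to 76.4%. Western-diet vehicle mouse 4 stood apart in its group, with C8a at 8.15% against 14.5% to 17.8%. Its C8g share was 86.2% against 70.45% to 76.6%, and its C8b share, 5.63%, was the lowest. No test was run on these shares, which follow from the levels above.

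On the control diet VB changed no member past the threshold. By edgeR 0 of 36 passed, beside 0.151% of all genes (0.0555% higher and 0.0951% lower), and 1 member, F5, had an unadjusted p under 0.05. DESeq2 called F5 (adjusted p = 0.0259), beside 164 of all genes, and limma-voom called 0 members. F5 was at 169, 181, 181, 180.4 and 210 CPM with vehicle and 221, 240.0, 202, 218 and 235 CPM with VB, with a log2 change of 0.28 (SE 0.08, edgeR adjusted p = 0.146). Pros1 was the 1 member whose groups did not overlap, being higher with VB (53.2 to 56.6 CPM against 38.1 to 51.1 CPM), beside 1.87% of all genes, and none was lower without overlap, beside 2.01%. The median change was 0.02 over the members and 0.00 over all genes.

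The genes that rose with VB on the Western diet did not pass with VB on the control diet. C8b was at 236, 234, 219, 214 and 255 CPM in control-diet VB mice, a log2 change of -0.20. C6, at 133, 184, 220, 174 and 231 CPM, had a change of -0.18 and C9, at 328, 259, 309, 317 and 338 CPM, one of -0.19. F11, at 57.1, 82.3, 60.5, 66.7 and 84.2 CPM, changed by 0.03 and Klkb1 by 0.07. All of these ranges overlapped those of vehicle mice.

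None of the other genes followed in every mouse passed on the control diet. C3 was at 4734, 3808, 3937, 3872 and 4051 CPM with VB (log2 0.22) and Hc at 332, 327, 298, 297 and 323 CPM (0.01). F2 was at 2681, 2400, 2542, 2353 and 2405 CPM (0.02) and Plg at 2223, 2155, 2159, 1918 and 2152 CPM (0.13). Fgb was at 5185, 5414, 4985, 5019 and 5292 CPM (0.12) and Serpinc1 at 2709, 2606, 2424, 2441 and 2472 CPM (-0.07).

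**Figure D4:**
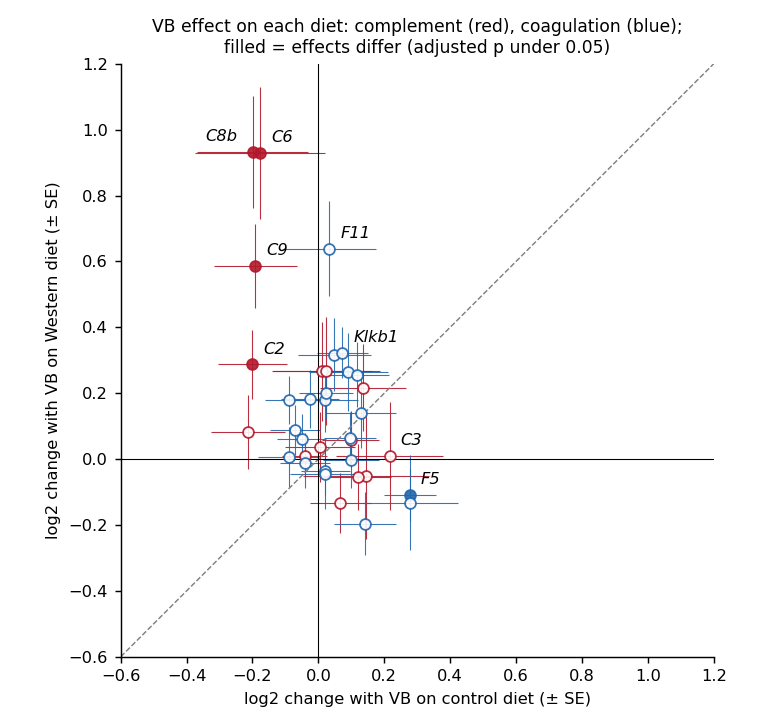
Log2 change with VB on the control diet (horizontal axis) against that on the Western diet (vertical axis) for the 36 members, with SE bars, the line of equal change dashed, and filled points where the difference of the 2 effects had an edgeR adjusted p under 0.05. C8b, C6, C9 and C2 are filled above the line and F5 below it.

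Whether the VB effect itself differed between diets was tested as an interaction. By edgeR 5 members passed, 4 with a more positive effect on the Western diet and 1 with a more negative one, which is 13.9% of the 36 beside 7.64% of all genes (3.63% more positive and 4.01% more negative). The 4 were complement genes: C8b (difference 1.13 on the log2 scale, SE 0.24, edgeR adjusted p = 0.0055), C9 (0.78, SE 0.18, adjusted p = 0.0094), C6 (1.11, SE 0.28, adjusted p = 0.0190) and C2 (0.49, SE 0.15, adjusted p = 0.0465). C2, the protease of the classical and lectin C3 convertase, was at 68.9, 62.4, 75.9, 66.8 and 69.4 CPM with vehicle and 60.7, 59.2, 56.2, 57.5 and 65.1 CPM with VB on the control diet. On the Western diet it was at 60.4, 62.1, 51.8, 55.6 and 62.1 CPM with vehicle and 82.3, 68.6, 56.3, 59.9 and 89.4 CPM with VB, so its ranges overlapped on each diet.

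The member in the other direction was F5 (-0.39, SE 0.11, edgeR adjusted p = 0.0353). On the Western diet it was at 227, 192, 203, 213 and 229 CPM with vehicle and 196, 188, 193, 187 and 221 CPM with VB. C2 and F5 were near the threshold: leaving out 1 mouse at a time, C2 passed in 5 of 20 fits and F5 in 7 of 20, while C8b, C9 and C6 passed in all 20. F11 (0.61, edgeR adjusted p = 0.0729) and Klkb1 (0.25, adjusted p = 0.179) did not pass, so their rise with VB is not shown to differ between diets. Without Western-diet vehicle mouse 4, Pros1 (-0.56, edgeR adjusted p = 0.0084) and C8g (0.40, adjusted p = 0.0466) passed as well. Calls over all genes rose in that fit from 964 to 1702. With the clock score as a covariate 0 members passed and 1 of all genes did. The differences of C8b, C9 and C6 were then 0.49, 0.435 and 0.01. On neither diet do VB and vehicle mice overlap on that score, so its part cannot be told apart from that of VB.

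The last comparison sets the Western against the control diet among VB mice. Here 3 members rose and none fell, C9 and C6 in complement and Cpb2 in fibrinolysis, which is 8.33% of the 36 beside 6.44% of all genes (3.23% higher and 3.22% lower). C9 was at 671, 577, 450.1, 439 and 694 CPM on the Western diet against 328, 259, 309, 317 and 338 CPM on the control diet, 1.83-fold higher without overlap (log2 0.87, SE 0.13, edgeR adjusted p = 0.00014). C6, at 278, 331, 218, 209 and 514 CPM against 133, 184, 220, 174 and 231 CPM, was 1.65-fold higher with overlapping ranges (log2 0.72, SE 0.20, adjusted p = 0.0338 by edgeR). Without Western-diet VB mouse 5 its change was 0.46 and adjusted p = 0.0925, and in a fit of the 2 VB groups alone adjusted p = 0.123.

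Cpb2 was at 415, 331, 318, 350 and 369 CPM on the Western diet and 297, 293, 271, 294 and 296 CPM on the control diet (log2 0.30, SE 0.07, edgeR adjusted p = 0.0183). Its groups did not overlap, and without Western-diet VB mouse 1 its change was 0.24 and adjusted p = 0.056. C8b (0.11), F11 (-0.23) and Klkb1 (-0.08), the genes with called falls in vehicle mice and called rises with VB, did not pass between the diets with VB. Neither did the serpins, with Serpinc1 at -0.15, Serpind1 at -0.19 and Serpinf2 at -0.16. C3 had the most negative change, -0.52 with edgeR adjusted p = 0.0579; without Western-diet VB mouse 1, its highest at 4075 CPM, it was -0.69 with adjusted p = 0.0083, and without Western-diet vehicle mouse 4, -0.54 with adjusted p = 0.00856. The median was 0.09 over complement genes and -0.10 over coagulation genes, beside 0.00 over all genes. The complement median was -0.00 without Western-diet VB mouse 1 and 0.19 without mouse 4, and the coagulation median -0.16 without mouse 1. Counting groups that do not overlap, C9 and Cpb2 were higher, beside 4.95% of all genes, and Serpind1 was lower, beside 4.48%. Without Western-diet vehicle mouse 4, which enters only the estimate of spread here, 7 members passed, with C3, F2, Kng1 and Serpind1 lower. Calls over all genes rose in that fit as well, from 813 to 1397. Without Western-diet VB mouse 1, 6 members passed, with C3, Cfi, F2 and Kng1 lower. This comparison shares its mice with the VB comparisons above.

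**Figure D5:**
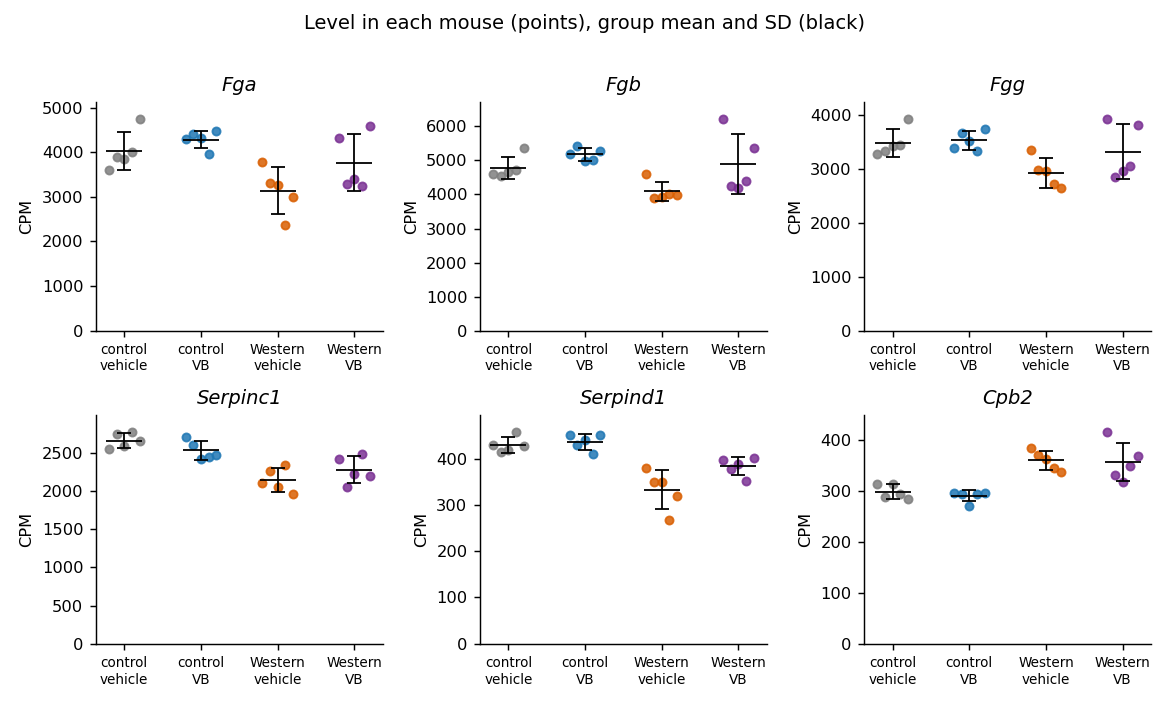
CPM of Fga, Fgb, Fgg, Serpinc1, Serpind1 and Cpb2 in each mouse (points, 5 a group), with the group mean and SD in black. For Serpinc1 and Serpind1 all Western-diet vehicle mice lie below all control-diet vehicle mice, and for Cpb2 they lie above.

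Read by role, the VB calls on the Western diet were 3 of 6 terminal complement genes and 2 of 4 contact-system genes. All were higher, beside 3.33% of all genes tested. The 3 fibrinogen chains, the 2 thrombin-directed serpins, the 3 vitamin K dependent anticoagulants and the 4 vitamin K dependent clotting factors had none. In roles this small, 0 calls is near the share over all genes. The lectin and alternative pathway enzymes Masp1, Masp2 and Cfb passed in none of the 5 comparisons with all mice. Nor did C3, C4b, Hc, C8a, C8g and the regulators C4bp, Cfi and Serping1 in complement, nor F2, F7, F12, F13b, Fgb, Fgg, Kng1, Plg, Proc, Pros1 and Proz in coagulation. These roles were assigned with earlier results of these data known, so the counts describe the list.

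Outside the members, the other complement and coagulation genes had calls with VB on the Western diet too. Of 27 other complement genes 1 fell (3.70%), Cfd by -3.20, with its adipocyte list at 5.15 to 48.9 CPM in VB mice. Of 27 other coagulation genes, Serpine2, a thrombin-inhibiting serpin, rose by 0.95, and Anxa2 (-0.87) and F3 (-0.91) fell, so 11.1% of that list passed, beside 9.52% of the coagulation members and 7.19% of all genes. Of the 23 acute-phase genes 0 rose and 4 fell, namely Orm3 (-1.73), Saa3 (-0.90), Mt1 (-2.25) and Mt2 (-2.42). Among the regulators, Nfil3, which binds the D-box as a repressor, rose by 1.31, and of the clock list 4 rose and 4 fell. In the interaction, Serpine2 (1.39) and Kng2 (-0.46) passed among the other coagulation genes and 0 of the other complement genes did. In VB mice between diets, Cfd (4.05) and Colec10 (-0.87) passed among other complement genes, and Kng2 (-0.43) and Serpine2 (0.98) among other coagulation genes. On the control diet VB changed none of either list, while Tef rose by 1.12.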

How the data were processed

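Liver RNA of 20 mice was sequenced in 2 lanes each. The values deposited by the authors are raw read counts by gene symbol in 40 lane files. GRCm38 is the build that the submitters' processing notes name. For the aligner, the counter, its annotation and strand handling, the answer is the same: not given in the sources used here. Reads common to close copies or to overlapping genes may thus have been split or dropped. Per the labels, libraries came from a TruSeq kit.

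Lanes of a mouse differed by 1.33 to 1.49 chi-square per degree of freedom, against 17.7 to 146 between mice of a group, and were summed. The title of 1 file puts it in VB and its treatment label in vehicle, and the title was followed. Groups come from the titles. R 4.3.3 with edgeR 4.0.16 was used: filterByExpr (minimum count 10, minimum total 15) left 12616 of 32544 genes, then TMM scaling and 1 robust quasi-likelihood fit of the 4 groups, with Benjamini-Hochberg adjustment over all 12616 genes and a threshold of 0.05. CPM are on TMM-scaled library sizes. The total counts before scaling, 16315342 to 24566686, limit precision through counting error only slightly at these levels. The labels do not say whether mice shared cages. The tests set group differences against the spread between mice, taken as independent, so p-values could be too small if mice of a group shared a cage. DESeq2 1.42.0, limma 3.58.1 and other scalings, filters, lanes, covariates and left-out mice were tried as alternatives.

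The members, their roles and the other lists were chosen with earlier results of these data known. Genes named with a value in every mouse are the up to 6 called members with the smallest p in each comparison, and always C3, Hc, C9, F2, Fgb, F11, Serpinc1 and Plg. Fga, C8b, C6, Klkb1 and F5 are also given by mouse outside that rule, chosen after their values were seen. Outside the members up to 4 called genes per list are named. Of the cell type marker lists, the called genes between diets in vehicle mice were Serpina1a, Tat (lower) and Cyp2e1 (higher) of 9 hepatocyte genes, Stab2 (endothelial, higher), Reln (stellate, lower), Sox9 (cholangiocyte, lower), Ppbp (platelet, higher), Cfd (adipocyte) and 1 neutrophil gene (higher). With VB on the Western diet they were Tat (higher), Cyp2e1 (lower), Sox9 (higher), Ppbp (lower) and Cfd. Between diets in VB mice they were Alb (lower), Reln, Dcn, Ecm1 and Hgf (stellate, lower), Cd4 (lymphocyte, higher) and Cfd. In the difference of VB effects they were Tat, Sox9 (higher) and Cyp2e1 (lower), and with VB on the control diet none. No Kupffer or erythroid marker was called. Their part in the members' results was not tested.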

Additional observations from a re-analysis of the deposited data

Results flagged for a closer look

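In a group of 5 mice, a value was singled out when its gap to the nearest other mouse, as a share of the group's range, passed Dixon's critical value. Of 144 groups of member values 17 were, and of 16 other groups 2 were, where chance gives about 1 in 20.

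Western-diet vehicle mouse 4 was the lowest of its group for C4b (517 CPM), C4bp (583 CPM), Masp1 (32.9 CPM) and Proz (288 CPM), for the members' share of counts (2.29%), and the highest for the mitochondrial share (4.62%). In the same group mouse 1 was the highest for Fgb (4595 CPM) and Klkb1 (237 CPM). Western-diet VB mouse 1 was the highest for C4bp (746 CPM), F7 (129 CPM) and F10 (532 CPM), mouse 5 the highest for F5 (221 CPM) and mouse 4 the lowest for Masp1 (46.4 CPM).

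Among control-diet mice, vehicle mouse 5 was the highest for Fgb (5355 CPM) and Fgg (3922 CPM). VB mouse 1 was the highest for C3 (4734 CPM), VB mouse 4 the lowest for C4b (911 CPM) and Plg (1918 CPM), and VB mouse 3 the lowest for Cpb2 (271 CPM).

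The VB effect differed between diets, by edgeR's interaction test, for C8b (1.13 on the log2 scale), C6 (1.11), C9 (0.78), C2 (0.49) and F5 (-0.39).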

How the results depend on the processing

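No called member changed sign under any alternative run. The number of members called between diets in vehicle mice was 10, and 8 to 11 without each mouse in turn. For VB on the Western diet it was 5, and 5 to 7. For VB on the control diet it was 0, and 0 to 0, but 1 with DESeq2. Between diets in VB mice it was 3, and 2 without some mice to 7 without Western-diet vehicle mouse 4 (6 without Western-diet VB mouse 1). It was 6 with DESeq2, 5 with limma-voom, 1 with no filter on low counts and 5 with the clock covariate. Those called with the clock covariate were C9 and C6, higher, and C3, F2 and Kng1, lower, while Cpb2 lost its call. For the difference of VB effects it was 5, and 3 (without control-diet vehicle mouse 1, 3 or 4, control-diet VB mouse 2 or 4, Western-diet vehicle mouse 5, or Western-diet VB mouse 1 or 2) to 7 (without Western-diet vehicle mouse 4), and 3 with no filter. Over all genes, leaving out each mouse in turn gave 1663 to 2411 calls between diets in vehicle mice. For VB it gave 605 to 1225 on the Western diet and 6 to 66 on the control diet. Between diets in VB mice it gave 541 to 1397, against 1201 with DESeq2 and 615 with the clock covariate. For the difference it gave 665 to 1702. Adding the clock score as a covariate gave 0 members for the vehicle diets, 0 for VB on the Western diet and 0 for the difference. Over all genes 28, 2 and 1 passed with it, in that order. The cause was not tested. The vehicle groups do not overlap on that score, nor do the VB and vehicle groups of either diet. Clock differences thus cannot be told apart from diet or VB in these comparisons.

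Between diets in vehicle mice F9 lost its call without control-diet vehicle mouse 1 (0.27) or 3 (0.29) or Western-diet vehicle mouse 2 (0.29) or 5 (0.29), and Cpb2 without Western-diet vehicle mouse 2 (0.24). Fga lost it, at -0.37 to -0.28, without control-diet vehicle mouse 2, 3, 4 or 5, control-diet VB mouse 3 or Western-diet vehicle mouse 3, 4 or 5. Between diets in VB mice C6 lost it, at 0.46 to 0.71, without control-diet VB mouse 1, 2 or 4 or Western-diet VB mouse 2 or 5, and Cpb2 without control-diet VB mouse 3 (0.27). Fitting only the groups compared ended the calls of F9 and Fga between diets in vehicle mice, Klkb1 with VB on the Western diet and C6 between diets in VB mice. Mouse numbers were not taken to pair the mice. Same-numbered mice deviated together, with r over 0.1, in at most 2 of 5 pairs, and r reached 0.378. The same-numbered mouse was the best match in 1 to 3 of 5 by comparison, so this check does not exclude pairing. With the mouse number as a replicate block the counts were 12, 5, 0, 4 and 5 in the order above. No scaling tried moved the median of all genes by more than 0.04 on the log2 scale.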
